A study of Zea mays subsp. mays x Zea mays subsp. mexicana with 20 samples.

Results

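The small RNA loci compared here were those with at least 15 reads in total over 4 maize pollen libraries, 2 from *dcl2-mu1* and 2 from *dcl2T* plants. Of the 85421 loci in the deposited count table, 34890 met this rule, 34623 on the 10 chromosomes and 267 on scaffolds. Loci are stretches where small RNA reads piled up, and the members were between 18 and 29671 bp long, with a median of 1302 bp. The table gives each locus a number and a position but pairs none with a gene, so loci are named by their number, and positions are those of the table, for which the sources used here name no genome build.

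In *dcl2T* plants both copies of *Dicer-Like 2* (*Dcl2*, chromosome 5, short arm) came from teosinte *mexicana*. In *dcl2-mu1* plants both copies carried a *Mu* transposon upstream of the coding sequence. All libraries were labelled as pollen of the maize by *mexicana* material. According to the methods the *dcl2-mu1* allele had been backcrossed repeatedly to the inbred W22. The *mexicana* lineage was also crossed to W22 and then backcrossed separately. An effect of either allele and of other sequence that differs between the plants therefore cannot be told apart. Pollen with the functional *Dcl2* allele, also 2 libraries, entered the filter on low counts, the scaling and the estimate of the spread. Its levels are given beside those of the mutants. The methods state 2 biological replicates for each mutant. Of the 20 samples in the series, 14 were not analysed here.

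DCL2 is a Dicer-like ribonuclease that cuts double-stranded RNA and long hairpin RNA into 22-nt short interfering RNAs (siRNAs). In plants these siRNAs silence matching transcripts and can start the production of further siRNAs from their targets. Other Dicer-like proteins make the 21-nt and 24-nt classes, and the deposited counts pool all read lengths at a locus, so the classes could not be separated. No sequence of a locus or of its reads is shown, because the table holds none.

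Library totals were 4357765 and 4920576 reads in *dcl2T*, 1950081 and 4083990 in *dcl2-mu1*, and 3966305 and 4392281 in *Dcl2*. A single read was therefore worth 0.513 CPM (counts per 1000000 reads of the library) in *dcl2-mu1* replicate 1, and between 0.203 and 0.252 CPM in the 5 others. The members held between 97.5% and 99.4% of the reads of each library. *dcl2-mu1* replicate 1 stood apart: 53.5% of members had no read in it, against 19.0% in *dcl2-mu1* replicate 2 and 6.18% and 5.31% in the *dcl2T* libraries. After all libraries were thinned to 1950081 reads these shares were 53.5%, 23.1%, 11.2% and 9.97%. The *Dcl2* libraries, at 21.3% and 21.4% before thinning, took no part in the choice of members, and the deeper *dcl2T* libraries weighed most in it. Between replicates, log2(CPM + 1) across members correlated with Pearson's r of 0.80 in *dcl2T* and 0.64 in *dcl2-mu1*, and with 0.92 and 0.85 across the 1137 members with a mean of at least 50 CPM. These correlations are across loci, which are not independent replicates.

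The alleles were first compared locus by locus. After a filter on low counts, 22558 loci were tested with edgeR's quasi-likelihood test, of which 21795 were members. Calls required a log2 fold change of 2 or more in size and, after Benjamini-Hochberg adjustment, a p no greater than 0.01, so that smaller changes could not be called. In *dcl2-mu1*, 45 loci were lower (0.199% of those tested) and 37 were higher (0.164%), all of them members. Both libraries of an allele lay beyond both of the other in CPM at all 82. Over all members, both *dcl2-mu1* libraries lay below both *dcl2T* libraries at 11000 (31.5%) and above both at 4807 (13.8%), so the lack of overlap alone was common. At an unadjusted p under 0.05, 2191 tested members were lower and 758 higher in *dcl2-mu1*. Over all tested loci the log2 fold change had a median of -0.37, or of -0.22 when scaled by library size alone. Changes of classes and regions are therefore read relative to that median. A locus could pass the filter through any genotype, and a weak locus without reads in *dcl2-mu1* passed only through another, so medians over tested loci are descriptions.

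The lower loci held 3.96% and 2.48% of the reads in the *dcl2T* libraries and 0.263% and 0.257% in *dcl2-mu1*. In the higher loci the *dcl2T* libraries had 0.0752% and 0.0710% of their reads, and the *dcl2-mu1* libraries 1.90% and 1.45%. Per length, the median level of a lower locus was 167 CPM per kb in *dcl2T* and 0.295 in *dcl2-mu1*. For a higher locus it was 2.41 and 74.2 CPM per kb. These 4 medians concern the loci the test chose and are given as a description.

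The levels in *Dcl2* pollen, which took no part in the contrast itself, divided the calls into 3 groups. At 35 of the 45 lower loci the mean *Dcl2* level, on a log2 scale with 0.5 CPM added, lay nearer to that of *dcl2T*, and both *dcl2-mu1* libraries lay below both *Dcl2* libraries at all 35. That separation follows largely from how the loci were chosen, so it is a description. Their median was 2.14 CPM in *dcl2-mu1* pollen, against 135 in *dcl2T* and 105 in *Dcl2*. At the other 10 lower loci *Dcl2* lay nearer to *dcl2-mu1*, with a median of 917 CPM in *dcl2T* against 8.82 in *dcl2-mu1* and 21.1 in *Dcl2*. At 6 of these 10 both *dcl2-mu1* libraries lay below both *Dcl2* libraries, and at 1, Cluster_10929, above both. The share of all loci separated in this way was not counted, so these numbers are descriptions. The distance to *Dcl2* varied, and at Cluster_24383 *Dcl2* was intermediate. At Cluster_11996, named after its values were seen, *Dcl2* had only 0.756 and 0.228 CPM, against 51.2 and 33.1 in *dcl2T*. At all 37 higher loci *Dcl2* lay nearer to *dcl2T*, with medians of 9.73 CPM in *dcl2T*, 7.58 in *Dcl2* and 262 in *dcl2-mu1*. No locus was called for being low in *dcl2T* alone.

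**Figure D1:**
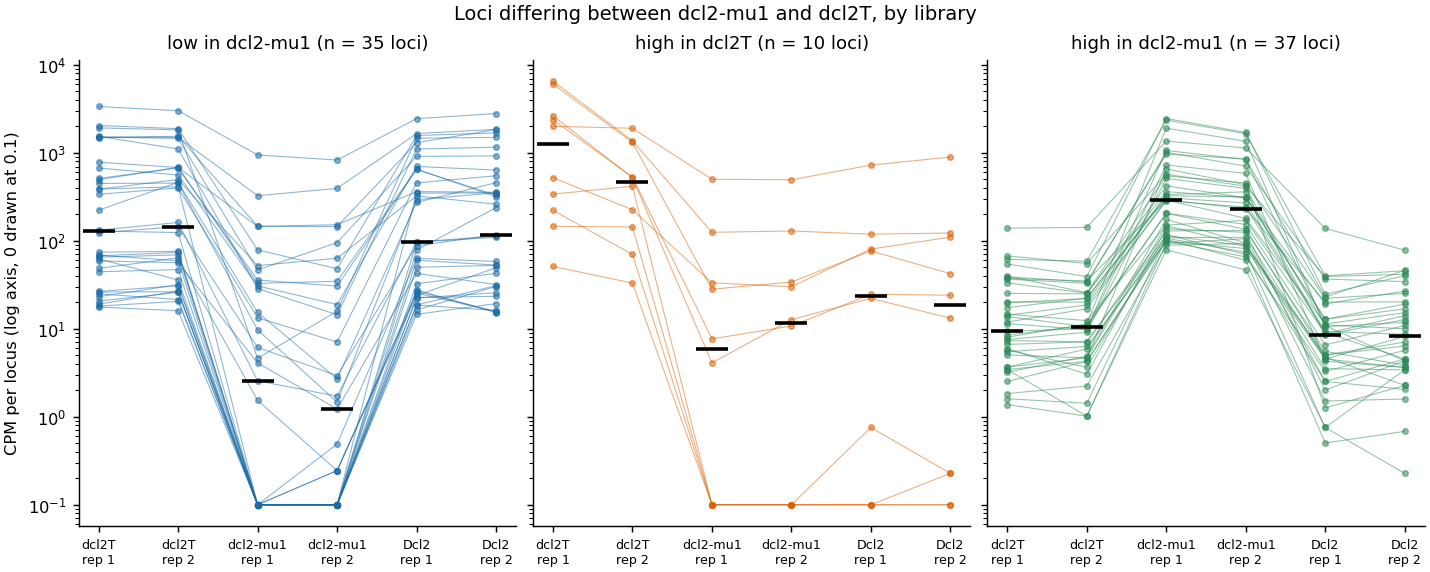
CPM of each called locus in the 6 libraries (log axis, values of 0 drawn at 0.1), for the 35 loci low in dcl2-mu1, the 10 high in dcl2T and the 37 high in dcl2-mu1. Each line is a locus and each black bar the median over the loci of that panel in that library. In the first panel 13 loci fall to 0 in both dcl2-mu1 libraries, whereas in the third no locus is at 0 in any library.

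The most abundant locus of the lower set, Cluster_83472 (chromosome 10, 121825370 to 121833474, 8105 bp), had 3368 and 3015 CPM in *dcl2T* and 947 and 829 in *dcl2-mu1*. In *Dcl2* it had 2448 and 2799 CPM. All *dcl2-mu1* values were below the others, with a log2 difference of -2.06 (SE 0.24) and an edgeR adjusted p of 0.00588. It missed the call with any of the 6 libraries left out, at adjusted p of 0.0107 to 0.0758 in edgeR.

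Next to it in abundance on the same chromosome was Cluster_84523 (143144995 to 143149789, 4795 bp), with 2048 and 1885 CPM in *dcl2T*, 79.0 and 48.2 in *dcl2-mu1*, and 1574 and 1688 in *Dcl2*. Its mean was 30.9-fold lower in *dcl2-mu1* (log2 fold change -5.20, SE 0.30), with an edgeR adjusted p of 0.000148, and it was called in all 16 alternatives. Cluster_81927 (chromosome 10, 85381796 to 85385385) had 1488 and 1546 CPM in *dcl2T*, 147 and 145 in *dcl2-mu1*, and 1305 and 1842 in *Dcl2*. The drop was 10.4-fold, with an edgeR adjusted p of 0.000722, and the *dcl2-mu1* libraries were nearly equal. Cluster_84035 (chromosome 10, 133948831 to 133951863) had 1519 and 1501 CPM in *dcl2T* and 326 and 395 in *dcl2-mu1*, beside 1659 and 1850 in *Dcl2*. It was 4.19-fold lower at an edgeR adjusted p of 0.00877, which rose to as much as 0.101 with a library left out. Of the 8 loci named for their abundance in the lower set, 4 lay on chromosome 10, and in all of these both *Dcl2* libraries lay above both *dcl2-mu1* libraries.

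The remaining abundant loci of the lower set lay on chromosomes 1 and 3, and in them *Dcl2* was nearer to *dcl2-mu1*. Cluster_10929 (chromosome 1, 271470963 to 271476195) had 6520 and 1373 CPM in *dcl2T*, 125 and 130 in *dcl2-mu1*, and 119 and 123 in *Dcl2*. Cluster_135 (chromosome 1, 2829843 to 2832703) had 6060 and 1318 CPM in *dcl2T*, 28.2 and 34.04 in *dcl2-mu1*, and 76.9 and 42.3 in *Dcl2*. Cluster_138, at 2849386 to 2850706 of the same chromosome, had 2643 and 524 CPM in *dcl2T*, and between 4.10 and 22.2 in the other 4 libraries. In each, *dcl2T* replicate 1 exceeded replicate 2 more than 4-fold, as it did at 17 of the 1137 members with a mean of at least 50 CPM. Cluster_10926 (271437619 to 271441981), named after its values were seen, had 2381 and 530 CPM in *dcl2T* and at most 24.7 elsewhere. These loci lie near opposite ends of the chromosome. Whether reads that fit several places were shared between them was not tested.

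Without *dcl2T* replicate 1, Cluster_10929 and Cluster_135 remained called in edgeR, at adjusted p of 0.00276 and 0.000887, against 0.00994 and 0.0053 with all libraries. Without either *dcl2-mu1* or either *Dcl2* library both missed the call, at adjusted p of up to 0.107 and 0.0668 in edgeR. Their log2 fold changes of -5.18 and -7.10 ranged from -5.92 to -3.58 and from -7.83 to -5.53 over the alternatives. Cluster_24383 (chromosome 3, 42774377 to 42783884, 9508 bp) did not share this spread, with 2006 and 1905 CPM in *dcl2T*, 501 and 495 in *dcl2-mu1*, and 726 and 896 in *Dcl2*. It was 3.93-fold lower in *dcl2-mu1*, at an edgeR adjusted p of 0.00671, and missed the call with any library left out.

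The higher set was more uniform. Its most abundant locus, Cluster_21415 (chromosome 2, 222968835 to 222974755, 5921 bp), had 54.6 and 39.2 CPM in *dcl2T*, 2458 and 1708 in *dcl2-mu1*, and 24.7 and 40.3 in *Dcl2*. Both *dcl2-mu1* libraries stood far above the others, with a 44.4-fold rise and an edgeR adjusted p of 0.000304. Cluster_62508 (chromosome 7, 133160491 to 133163018, 2528 bp) had 8.03 and 11.4 CPM in *dcl2T* and 1912 and 1354 in *dcl2-mu1*, with 10.6 and 11.8 in *Dcl2*. It rose 168-fold (log2 fold change 7.16, SE 0.35), with an edgeR adjusted p of 0.000124. No other locus of the set had a larger log2 fold change in that fit. Cluster_65548 (chromosome 8, 14769540 to 14772906) had 9.41 and 9.96 CPM in *dcl2T*, 1066 and 840 in *dcl2-mu1*, and 11.1 and 10.0 in *Dcl2*. That is a 98.4-fold rise, at an edgeR adjusted p of 0.000124.

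Cluster_2985 (chromosome 1, 66913074 to 66915785) had 11.5 and 9.75 CPM in *dcl2T*, 728 and 584 in *dcl2-mu1*, and 4.29 and 3.64 in *Dcl2*. Cluster_78801 (chromosome 9, 162314689 to 162316999), chosen after its values were seen, had 3.67 and 4.67 CPM in *dcl2T* and 657 and 434 in *dcl2-mu1*. The first rose 61.8-fold and the second 131-fold, at adjusted p of 0.0002 and 0.000172 in edgeR's test with Benjamini-Hochberg adjustment. In both, the *Dcl2* libraries were lower than the *dcl2T* libraries. Cluster_61833 (chromosome 7, 115826095 to 115830018) had 61.7 and 58.7 CPM in *dcl2T*, 2361 and 1651 in *dcl2-mu1*, and 40.1 and 45.8 in *Dcl2*, a 33.3-fold rise with an edgeR adjusted p of 0.000172.

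Cluster_29341 (chromosome 3, 186720564 to 186723742) had 39.0 and 34.1 CPM in *dcl2T* and 970 and 853 in *dcl2-mu1*. Cluster_48712 (chromosome 5, 179411765 to 179413290) had 36.7 and 32.9 CPM in *dcl2T* and 1015 and 707 in *dcl2-mu1*. They rose 24.9-fold and 24.7-fold, with adjusted p of 0.00122 and 0.000377 in the edgeR test. Cluster_14486 (chromosome 2, 37186047 to 37191525) started from a higher level, with 139 and 142 CPM in *dcl2T* and 1361 and 1139 in *dcl2-mu1*. Its 8.88-fold rise had an edgeR adjusted p of 0.00746 and missed the call with any of the 6 libraries left out.

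Of the 8 loci named for their abundance in the higher set, 5 were called in all 16 alternatives, Cluster_21415, Cluster_61833, Cluster_62508, Cluster_65548 and Cluster_2985. In 31 of the 37 higher loci *dcl2-mu1* replicate 1 exceeded replicate 2 in CPM. Its scaling factor in the edgeR fit was 1.30 against 0.998 for replicate 2.

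None of the higher loci was without a read in *dcl2T*, and the lowest value of any *dcl2T* library at these loci was 1.02 CPM. By contrast, 17 of the 45 lower loci were without a read in both *dcl2-mu1* libraries. Across all members, *dcl2-mu1* reads were absent at 12.8% and *dcl2T* reads at 0.811%, so absence was more common in *dcl2-mu1* in general. Lower calls also reached down to a mean of 8.43 CPM over the 4 libraries, whereas higher calls began at 32.03 CPM. How far depth, the choice of members and abundance account for the contrast was not tested. A count of 0 was set to a floor of 3 reads over both libraries of the genotype, which is 0.497 CPM in *dcl2-mu1*, for a lower bound of the ratio. Floors cover counting error only. Cluster_57455 (chromosome 6, 166466808 to 166467371, 564 bp) had 388 and 413 CPM in *dcl2T*, 349 and 351 in *Dcl2*, and no read in *dcl2-mu1*. It was at least 805-fold lower, with an edgeR adjusted p of 0.000124, and was called in all 16 alternatives.

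Cluster_26293 (chromosome 3, 104459965 to 104460160) had 340 and 417 CPM in *dcl2T* and no read in the other 4 libraries, at least 762-fold lower in *dcl2-mu1*. Cluster_9026 (chromosome 1, 228149708 to 228151325) had 222 and 70.1 CPM in *dcl2T*, and its only read elsewhere was in *Dcl2* replicate 2. The ratio was at least 294-fold, and the edgeR adjusted p of 0.00494 rose to 0.0139 without *dcl2T* replicate 1. The loci without a *dcl2-mu1* read were therefore of both kinds, 13 with reads in *Dcl2* at the level of *dcl2T* and 4 with reads in *dcl2T* alone or nearly so.

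Many calls depended on single libraries, those of *Dcl2* included. The *Dcl2* libraries entered through the filter, the scaling and the spread, and not through the contrast. Without *Dcl2* replicate 1, 8 loci were lower and 7 higher, and without replicate 2 the counts were 7 and 7. Of the fits with a library left out, Cluster_81927, Cluster_41972, Cluster_48712, Cluster_43433 and Cluster_84522 missed the call in these alone, at adjusted p of 0.0103 to 0.0300 in edgeR. Cluster_43433 and Cluster_84522 also missed it in the fit of the 4 mutant libraries, at 0.0107 and 0.0151. Cluster_29341 missed it without either *Dcl2* library and without *dcl2T* replicate 2. Cluster_79685 missed it without either *dcl2T* or either *Dcl2* library. Cluster_138 and Cluster_5748 missed it without either *dcl2-mu1* or either *Dcl2* library, at up to 0.0779 and 0.0288. Among the same fits, Cluster_84035 kept the call only without *dcl2-mu1* replicate 2, and Cluster_9026 only without *dcl2T* replicate 2.

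By length, calls were most frequent among long loci in both directions, and under 1000 bp lower calls outnumbered higher ones. Among tested members, 0.160% (1) of the 625 loci under 200 bp were called lower and 2.36% (3) of the 127 loci of 10000 bp and over. For higher calls the shares ran from 0 of 625 to 0.787% (1 of 127). At 5000 to under 10000 bp the share of higher calls was 0.768% (7 of 912). Of the 45 lower loci, 10 were under 1000 bp, 21 ranged from 1000 to under 5000 bp and 14 were 5000 bp or longer. Of the 37 higher loci these numbers were 1, 28 and 8. Loci under 1000 bp made up 29.3% of the tested members. No locus under 500 bp was called higher, while 6 of the 2397 tested were called lower. Where libraries were left out in turn, the lower calls under 1000 bp numbered between 2 and 17 and the higher ones 0 in each fit. Under 1000 bp, 87 were lower and 26 higher without a filter on low counts, 53 and 13 with DESeq2, and 13 and 3 with library size alone.

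The median length was 2861 bp for lower and 3265 bp for higher calls, against 1544 bp for tested members. Long loci also had more reads: length and mean CPM correlated with a Spearman's rho of 0.35 across the 34890 members, as a description of loci that share libraries. Per kb the relation was the opposite, with a rho of -0.40. How far the frequency of calls among long loci follows their read number was not tested.

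**Figure D2:**
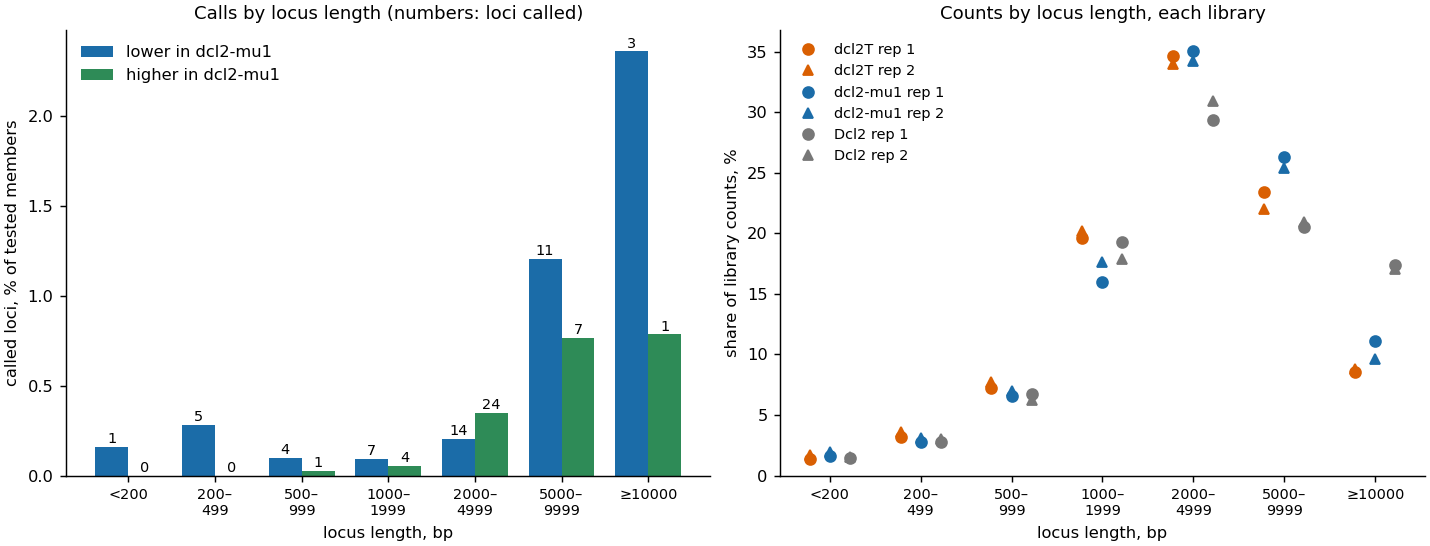
Left, loci called lower or higher in dcl2-mu1 as a percentage of tested members in 7 length classes, with the number called above each bar. Right, the share of each library's counts in the same classes, with circles and triangles for replicates 1 and 2. The share of calls is largest at 10000 bp and over for lower loci (2.36%), and the dcl2-mu1 libraries lie above the dcl2T libraries at 5000 bp and over.

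The 3 shortest loci of the lower set had 688 to 2711 CPM per kb in *dcl2T*, while other lower loci under 1000 bp reached down to 18.9, at Cluster_41544 (named after its values were seen). Cluster_26293, at 196 bp the shortest of all calls, had 1932 CPM per kb in *dcl2T*. Cluster_41972 (chromosome 5, 1103903 to 1104113, 211 bp) had 146 and 144 CPM in *dcl2T* and no read in the other 4 libraries. It was at least 292-fold lower in *dcl2-mu1*, with an edgeR adjusted p of 0.00134, and lies on the short arm of chromosome 5, as *Dcl2* does. Cluster_5748 (chromosome 1, 150770916 to 150771134, 219 bp) had 512 and 675 CPM in *dcl2T*, 35.9 and 30.6 in *dcl2-mu1*, and 648 and 331 in *Dcl2*. At 2711 CPM per kb in *dcl2T* it was the densest of the named lower loci.

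Cluster_15214 (chromosome 2, 56345842 to 56346760), named after its values were seen, had nearly the same 6 values as Cluster_5748. They were 497 and 686 CPM in *dcl2T*, 32.8 and 34.8 in *dcl2-mu1*, and 652 and 317 in *Dcl2*. Whether reads that fit both places were divided between them was not tested, so the value of each is uncertain.

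The longest lower locus, Cluster_43433 (chromosome 5, 29265365 to 29280748, 15384 bp), had 124 and 146 CPM in *dcl2T*, 6.15 and 2.94 in *dcl2-mu1*, and 87.5 and 118 in *Dcl2*. It was 29.6-fold lower, with an edgeR adjusted p of 0.000889. Cluster_31773 (chromosome 3, 237450363 to 237460483, 10121 bp) had 132 and 162 CPM in *dcl2T* and 2.56 and 1.71 in *dcl2-mu1*, with 97.3 and 113 in *Dcl2*. Its adjusted p was 0.000232 in edgeR's test and it was called in all 16 alternatives. Both were sparse, with 8.75 and 14.5 CPM per kb in *dcl2T*.

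The longest higher locus, Cluster_79685 (chromosome 10, 19443060 to 19456661, 13602 bp), had 25.24 and 24.997 CPM in *dcl2T* against 422 and 309 in *dcl2-mu1*, a 14.6-fold rise with an edgeR adjusted p of 0.00198. Cluster_53384 (chromosome 6, 79100352 to 79107688) had 3.44 and 1.02 CPM in *dcl2T* and 93.3 and 106 in *dcl2-mu1*. Cluster_20811 (chromosome 2, 210250118 to 210256855) had 13.8 and 10.6 CPM in *dcl2T* and 207 and 153 in *dcl2-mu1*. The last 2 had adjusted p of 0.00962 and 0.00535 in edgeR's test, and neither was called with any library left out.

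At the short end of the higher set stood Cluster_82003 (chromosome 10, 87608159 to 87608927, 769 bp), with 1.38 and 1.02 CPM in *dcl2T* and 79.0 and 46.8 in *dcl2-mu1*. Next by length came Cluster_48712, described above, and Cluster_22994 (chromosome 3, 8400720 to 8402275, 1556 bp), with 37.4 and 34.96 CPM in *dcl2T* and 292 and 232 in *dcl2-mu1*. Their adjusted p in edgeR's test were 0.00872 for the first and 0.00812 for the last, and neither of these was called with any library left out.

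In none of the 7 length classes was the most abundant locus called. Calls were rare in general, at 0.199% lower and 0.164% higher of all tested loci. At 1000 CPM and over, 5 lower and 2 higher of 162 were called, so the lack of a call among 7 says little. Cluster_57375 (chromosome 6, 165060235 to 165060329), a locus of 95 bp, had 6029 and 5433 CPM in *dcl2T* and 5389 and 5679 in *dcl2-mu1*, so that the alleles overlapped. Cluster_32435 (chromosome 4, 6215895 to 6216368, 474 bp) had 5042 and 5618 CPM in *dcl2T* and 3690 and 4121 in *dcl2-mu1*. Cluster_8107 (chromosome 1, 209274446 to 209275262, 817 bp) had 3288 and 3380 CPM against 6085 and 5479. Cluster_51751 (chromosome 6, 28051761 to 28052947, 1187 bp) had 15874 and 15187 CPM against 9328 and 11601.

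Cluster_41617 (chromosome 4, 249016420 to 249019972, 3553 bp) had 21119 and 21149 CPM in *dcl2T* and 33364 and 29494 in *dcl2-mu1*. Cluster_25109 (chromosome 3, 62552652 to 62561691, 9040 bp), the most abundant member of all, had 48556 and 48319 CPM against 68965 and 63611. Cluster_66207 (chromosome 8, 32579531 to 32609201), the longest member at 29671 bp, had 10490 and 10617 CPM against 25684 and 20356, with 53932 and 49888 in *Dcl2*. Among these 7, ratios of mean CPM between *dcl2-mu1* and *dcl2T* ran from 0.674 to 2.18, and adjusted p from 0.137 to 0.803 in edgeR's test with Benjamini-Hochberg adjustment. At 6 of the 7 loci the libraries of the alleles did not overlap, and none reached the log2 fold change of 2 that a call requires. Over all members, both *dcl2-mu1* libraries lay below both *dcl2T* libraries at 31.5% and above both at 13.8%.

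Loci of 5000 bp and over held 31.99% and 30.9% of the reads in *dcl2T*, 37.4% and 35.01% in *dcl2-mu1*, and 37.9% and 37.96% in *Dcl2*. The means of the mutants were 31.4% ± 0.795 (SD, n = 2) and 36.2% ± 1.70 (SD, n = 2), a difference of 4.78 percentage points. The exact two-sided permutation p was 0.33, which is the smallest that 2 libraries against 2 can give. Without the 10 most abundant loci the difference was 2.51 points. Loci under 500 bp held 4.54% and 5.34% in *dcl2T* against 4.42% and 5.00% in *dcl2-mu1*, so that the alleles overlapped (exact permutation p = 0.67). In between, loci of 1000 to under 2000 bp held 19.7% and 20.2% in *dcl2T* against 15.96% and 17.7% in *dcl2-mu1*.

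Relative to the median of all tested loci, the class medians of the log2 fold change ran from -0.12, under 200 bp and at 10000 bp and over, to 0.10 at 2000 to under 5000 bp. The share of reads weights a locus by its reads, whereas in the median each locus counts alike. Across the 21795 tested members, length and log2 fold change correlated with a Spearman's rho of 0.05, given as a description across loci.

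By abundance, no locus with a mean under 5 CPM over the 4 libraries was called, although 5012 tested members lay under 2 CPM and 8819 between 2 and 5 CPM. Of the 5689 tested members between 5 and 20 CPM, 8 were called lower and 0 higher, with 394 higher at an unadjusted p under 0.05. Between 20 and 100 CPM the numbers were 14 and 17 of 1565, and between 100 and 1000 CPM they were 18 and 18 of 548, or 3.28% in each direction. At 1000 CPM and over, 5 were lower and 2 higher of 162. Lower calls thus began at 8.43 CPM and reached 2040 CPM, whereas higher calls ran from 32.03 to 1065 CPM.

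**Figure D3:**
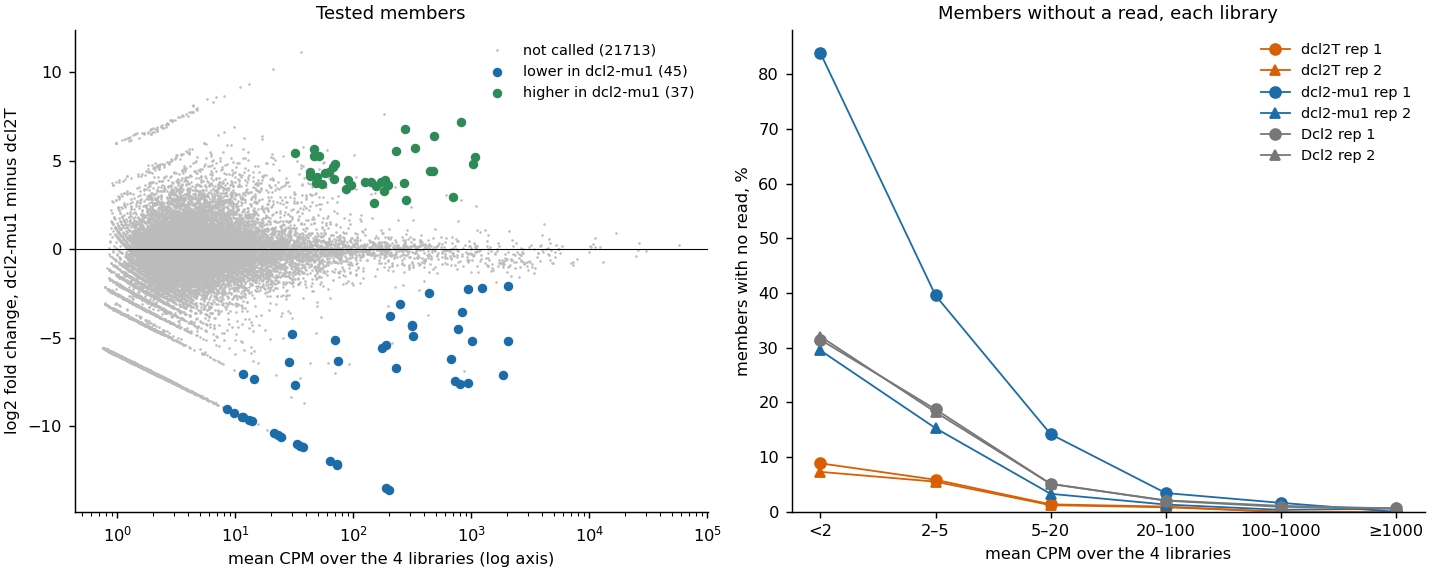
Left, log2 fold change of each tested member (dcl2-mu1 minus dcl2T) against its mean CPM over the 4 libraries (log axis), with called loci coloured. Right, the percentage of members without a read in each library by class of mean CPM. Calls lie at 8.43 CPM and above, and dcl2-mu1 replicate 1 lacks reads at 83.9% of the members under 2 CPM.

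Of the 16211 members under 2 CPM only 30.9% passed the filter, which at such a mean level favours loci with their reads in a single genotype. Nothing is therefore read from the sign of their median. The median log2 fold change was -1.64 in the 5012 tested members under 2 CPM and -0.29 between 2 and 5 CPM. It was 0.01 between 5 and 20 CPM and -0.35 at 1000 CPM and over. *dcl2-mu1* replicate 1 moved with this: it had no read at 83.9% of members under 2 CPM, where replicate 2 had none at 29.5%, the *dcl2T* libraries at 8.87% and 7.30%, and the *Dcl2* libraries at 31.5% and 32.1%. Members under 2 CPM held 0.728% of the reads in *dcl2-mu1* replicate 1 and 2.08% in replicate 2, against 2.69% and 2.92% in *dcl2T*. The part of this library in these medians was not tested beyond leaving it out, which moved the median over all tested loci from -0.37 to -0.25. Without replicate 2 instead, it was -1.64.

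The 100 most abundant members held 56.0% and 54.6% of the reads in *dcl2T*, 56.7% and 56.8% in *dcl2-mu1*, and 61.7% and 57.9% in *Dcl2*. The difference of 1.46 points between the mutants had an exact two-sided permutation p of 0.33. Among the 10 most abundant the gap was wider, with 20.9% and 20.1% in *dcl2T* against 26.6% and 24.1% in *dcl2-mu1*. Of the 162 members at 1000 CPM and over, none was without a read in *dcl2T* or in *dcl2-mu1* replicate 1, and 0.617% were in *dcl2-mu1* replicate 2.

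Members absent from an allele were far more often absent from *dcl2-mu1*. No read in either *dcl2-mu1* library was found at 4480 members, and no read in either *dcl2T* library at 283. After thinning to equal totals, with the members unchanged, these numbers were 5411 and 665. A member without a *dcl2-mu1* read was chosen through its *dcl2T* reads alone. Since the *dcl2T* libraries were deeper, the choice of members favoured this direction, and thinning did not remove that. Of the 4480 members, 2177 had reads in both *Dcl2* libraries, and of the 283 members 46 had. The share without a *dcl2-mu1* read was 17.4% under 200 bp and 20.1% at 200 to under 500 bp, and fell from there to 5.35% at 2000 to under 5000 bp, 0.742% at 5000 to under 10000 bp and 0 of the 128 members of 10000 bp and over. From 200 bp upwards, in the same classes, the share without a *dcl2T* read went from 2.16% through 0.229% to 0. The depth and sparseness of *dcl2-mu1* replicate 1 moved with these counts, and replicate 2 alone lacked reads at 28.7%, 8.78%, 1.17% and 0% of the same classes.

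By position, chromosome 10 carried more lower calls than any other. Of the 45 lower loci 17 lay there, 1.13% of its 1504 tested members, beside 5 higher loci. The remaining 28 lower calls were spread over the other 9 chromosomes, at 0.0398% to 0.258% of the members tested on each. Lower calls on chromosome 10 numbered between 4 and 14 with a library left out, of 7 to 54 lower calls in all. Higher calls lay on all 10 chromosomes, between 2 and 6 on each, and no pair of them was closer than 1000 kb.

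The members of that chromosome as a whole also had low values in *dcl2-mu1*. The median log2 fold change of its tested members was -0.76, against -0.45 to -0.25 on each of the others. It stayed the lowest of the 10 chromosomes with library size alone, with RLE factors and with upper-quartile factors, at -0.61, -0.79 and -0.77. No read was found in *dcl2-mu1* replicate 2 at 29.2% of its 2361 members, and at 16.9% to 19.2% of members on each other chromosome. In *dcl2-mu1* replicate 1 the share was 57.8%, against 51.5% to 54.6%. In *dcl2T* and *Dcl2* chromosome 10 was not poorer in reads than the rest: its members without a read made up 5.80% and 3.69% in *dcl2T*, and 20.1% in each *Dcl2* library. Without *dcl2-mu1* replicate 1 the median on chromosome 10 was -0.84, and -0.19 over the other 9 chromosomes together. The chromosome held 13.1% and 12.7% of the reads in *dcl2T*, 11.2% and 10.6% in *dcl2-mu1*, and 11.2% and 12.0% in *Dcl2*.

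**Figure D4:**
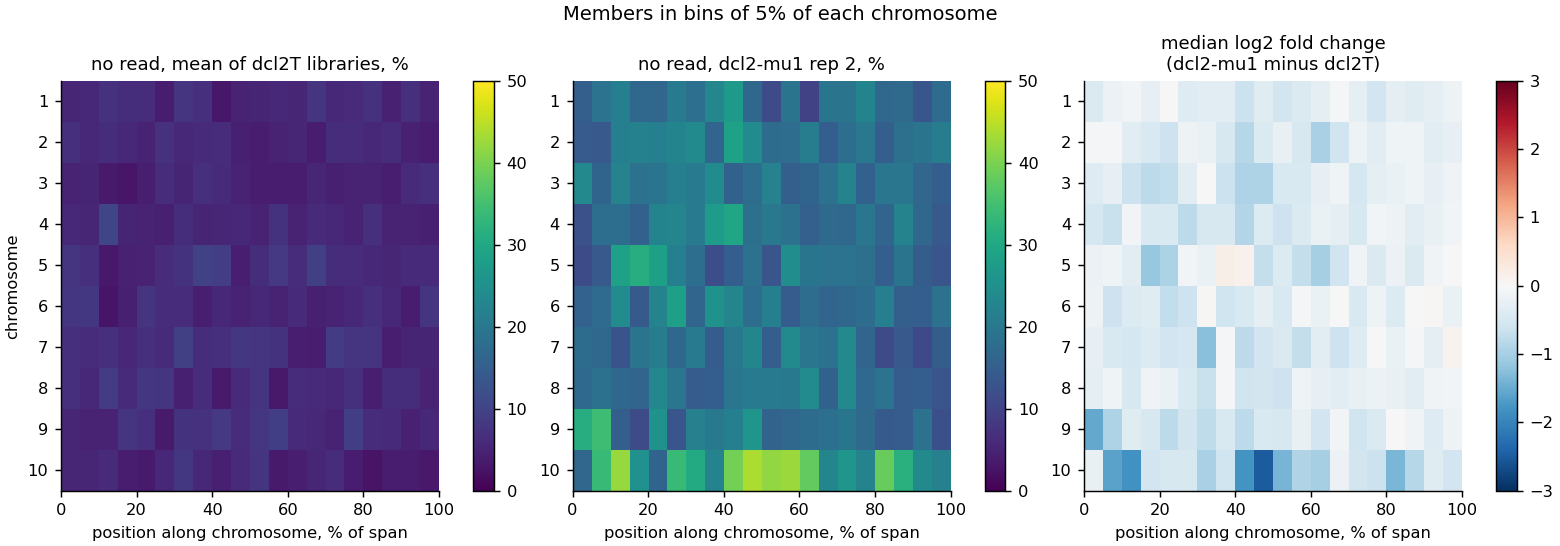
Members in bins of 5% of the span of each chromosome (rows, chromosomes 1 to 10). The first panel shows the percentage of members with no read as the mean of the dcl2T libraries, the second the same for dcl2-mu1 replicate 2, and the third the median log2 fold change of tested members. Chromosome 10 stands out in the last 2 panels, with smaller stretches on chromosomes 5 and 9, and in the first panel no chromosome does.

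The pattern was uneven along the chromosome. In windows of 10 Mb, the median log2 fold change was lowest on chromosome 10 from 60 to 70 Mb, at -2.68 over 77 tested members, followed by -1.69 from 70 to 80 Mb. From 10 to 20 Mb it was -1.51 and from 120 to 130 Mb it was -1.17. Shares of reads did not follow these medians in each window. From 10 to 20 Mb they were higher in *dcl2-mu1*, at 0.0802% and 0.0678% against 0.0529% and 0.0546% in *dcl2T*. From 60 to 70 Mb they were 0.0450% and 0.0356% against 0.0489% and 0.0519%. They were lower from 70 to 80 Mb, at 0.677% and 0.818% against 1.26% and 1.36%. The same held from 120 to 130 Mb, at 0.570% and 0.538% against 1.11% and 1.06%. Of the 219 windows of the genome 10 had a median of -1 or less, 5 of them on chromosome 10. In 8 windows, both *dcl2-mu1* libraries lacked reads at over 25% of members, where the median over windows was 12.3%, and 5 of the 8 were on chromosome 10. No window exceeded 3.45% for members without a *dcl2T* read. In these 8 windows, with 1002 members in all, *dcl2-mu1* replicate 2 had no read at 38.4%, against 18.4% in the other windows. The *Dcl2* libraries had none at 21.7% and 22.3% in the 8 windows and at 21.3% and 21.4% in the others. The windows were picked by absence in *dcl2-mu1*, so its own share is a description.

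Outside chromosome 10 the same was seen on chromosome 9 from 0 to 10 Mb (median log2 fold change -1.54) and on chromosome 5 from 40 to 50 Mb (-1.32). A further window, from 170 Mb on chromosome 6, had only 23 members. On chromosome 5 the first 20 Mb of the short arm did not share it. There *dcl2-mu1* replicate 2 lacked reads at 12.7% of 559 members, against 19.1% beyond 20 Mb. The *dcl2T* libraries had none in either at 1.97% and 1.10% of the members in these stretches.

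A block of lower loci stood near the distal end of chromosome 10. Cluster_84522, Cluster_84523, Cluster_84525, Cluster_84526 and Cluster_84530 lay within 63.6 kb (143127480 to 143191092), a stretch that held 9 loci of the table, 8 of them members. Summed over the 5 loci, the level was 6216 and 5406 CPM in *dcl2T*, 4872 and 5014 in *Dcl2*, and 143 and 97.5 in *dcl2-mu1*. In *dcl2T* the block thus held 15.7% and 21.8% of the reads of all 45 lower loci. Cluster_84522, of 11214 bp, had 1923 and 1827 CPM in *dcl2T* against 4.62 and 15.9 in *dcl2-mu1*, a 183-fold drop with an edgeR adjusted p of 0.00121.

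Cluster_84525 had 1546 and 1107 CPM in *dcl2T* and 28.7 and 14.4 in *dcl2-mu1*. Cluster_84526 had 673 and 561 CPM against 30.8 and 18.9, and Cluster_84530 had 26.2 and 26.4 CPM against no read. These 3 loci, named after their values were seen, had adjusted p of 0.000172, 0.000266 and 0.00494 in edgeR's test. The 4 loci of the stretch that were not called were weak, at most 7.34 CPM in any library, and had at most 2 reads in a *dcl2-mu1* library. Beyond the block, Cluster_84532 (143202747 to 143205654) had 15.8 and 23.6 CPM in *dcl2T* and 23.1 and 12.2 in *dcl2-mu1*, so the alleles overlapped there. On the other side Cluster_84521 (143115928 to 143126689) had 40.8 and 51.4 CPM in *dcl2T* and 7.18 and 7.35 in *dcl2-mu1*, with an edgeR adjusted p of 0.0271, which is not a call. Reads of neighbouring loci may belong to a single transcript or repeat, so the 5 calls are not independent.

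Distance from the chromosome ends separated the alleles less than the chromosome did. Of 3460 tested members within 5% of the span from an end, 13 were called lower and 4 higher. The 5 calls of the chromosome 10 block, which are not independent, were among these 13. Between 35% and 50%, in the middle, 9 of 5102 were lower and 8 higher. The class medians of the log2 fold change declined from -0.22 at the ends to -0.47 in the middle. *dcl2-mu1* replicate 2 lacked reads at 16.2% of members in the outermost zone and at 20.4% in the middle, while the *dcl2T* libraries stayed between 5.11% and 6.42% in every zone. Members within 10% of the span from an end held 30.5% and 29.9% of the reads in *dcl2T* and 30.2% and 30.0% in *dcl2-mu1*. The mean difference of -0.10 points was within the spread of the libraries (exact two-sided permutation p = 1).

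Sums over windows of 10 Mb add the reads of many loci. At an adjusted p of at most 0.05 in edgeR's test and with no minimum for the fold change, 32 of 219 windows (14.6%) were lower and 34 (15.5%) higher in *dcl2-mu1*. The differences were small, with a median size of 0.59 on the log2 scale for lower and 0.49 for higher windows, and a range of 0.35 to 1.31 and of 0.31 to 1.88. Of the 15 windows on chromosome 10, 8 were lower and none was higher. On chromosome 2, 6 of 25 windows were higher and 2 lower.

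Single loci made much of these sums. The locus with the largest part of the difference accounted for over 50% of it in 15 of the 32 lower and 26 of the 34 higher windows. In 3 and 8 windows it exceeded the whole difference, so that the other loci together went the other way. Without the most abundant locus of each window, 19 of the 32 lower and 21 of the 34 higher windows were called again in the same direction.

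**Figure D5:**
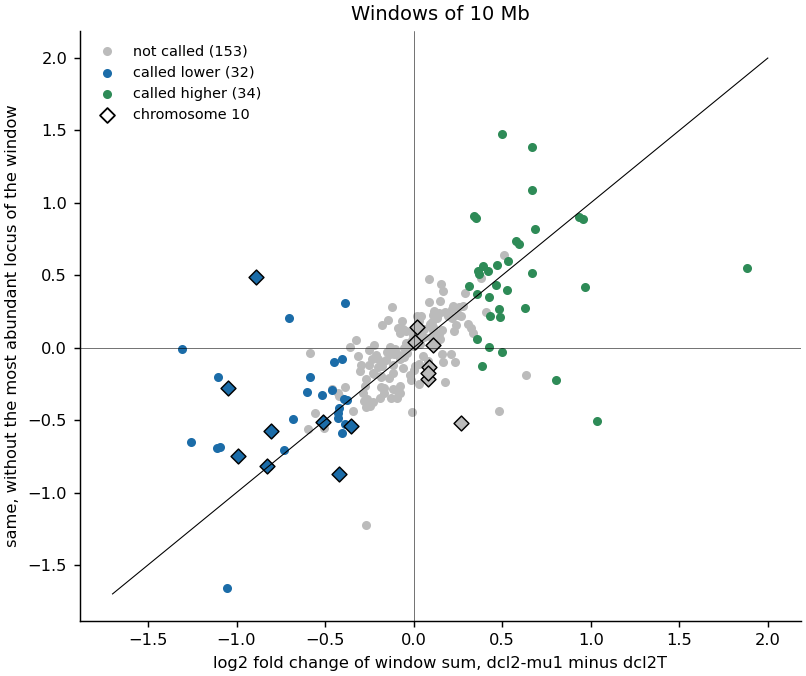
Log2 fold change of the summed counts of each 10 Mb window (horizontal) against the same value without the window's most abundant locus (vertical), for 219 windows. Blue windows were called lower, green ones higher, and diamonds mark chromosome 10, where 8 of 15 windows were lower. Points far from the diagonal, such as chromosome 7 from 110 to 120 Mb (1.88 against 0.55), are windows in which that locus set the size of the difference.

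The window with the smallest p was chromosome 7 from 110 to 120 Mb, at 825 and 816 CPM in *dcl2T* and 3424 and 2709 in *dcl2-mu1*. The log2 fold change was 1.88 (SE 0.12), with an edgeR adjusted p of 0.000118, and Cluster_61833 accounted for 86.6% of the difference. Without the most abundant locus the window was still higher, by 0.55. On chromosome 9 from 150 to 160 Mb the log2 fold change was 0.96 (adjusted p of 0.000503 in edgeR), of which Cluster_78466 made up 75.1%. That locus (157431441 to 157438656) had 187 and 173 CPM in *dcl2T* and 1586 and 1308 in *dcl2-mu1* and was itself not called, at an edgeR adjusted p of 0.0151 across loci.

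Among lower windows, chromosome 1 from 40 to 50 Mb had 2565 and 2386 CPM in *dcl2T* and 970 and 1050 in *dcl2-mu1* (log2 fold change -1.31, adjusted p of 0.000317 in edgeR). Cluster_2006 (42246550 to 42251583) took 96.6% of that difference, with 1512 and 1460 CPM in *dcl2T* and 46.7 and 95.5 in *dcl2-mu1*. Without the most abundant locus the window's difference was -0.01. On chromosome 10 from 30 to 40 Mb Cluster_80187 (34539950 to 34553536) took 95.9%, with 4771 and 4570 CPM in *dcl2T* and 2250 and 2027 in *dcl2-mu1*. It had a log2 fold change of -1.34 and an edgeR adjusted p of 0.0354 across loci, and was not called.

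Chromosome 10 from 120 to 130 Mb and chromosome 9 from 0 to 10 Mb kept a larger part of their difference without the most abundant locus. The first had a log2 fold change of -0.99 with all loci and -0.75 without the most abundant, and adjusted p of 0.000623 and 0.0035 in edgeR. The second had -1.11 and -0.69, with adjusted p of 0.000503 and 0.0035. Their largest contributors, Cluster_83472 and Cluster_72632 (chromosome 9, 9688852 to 9690634), accounted for 42.8% and 39.7%. Cluster_72632 had 223 and 463 CPM in *dcl2T*, 15.4 and 2.69 in *dcl2-mu1*, and 274 and 458 in *Dcl2*, and was called lower at an edgeR adjusted p of 0.00752. The median log2 fold changes of their tested members were -1.17 and -1.54, while 3 of 122 and 1 of 99 were called lower, and *dcl2-mu1* replicate 1 had no read at 63.1% and 65.5% of their members.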

How the data were processed

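Small RNAs of pollen were sequenced from *dcl2T*, *dcl2-mu1* and *Dcl2* plants, with 2 libraries each. According to their methods, the authors trimmed adapters with cutadapt, removed random bases at both read ends and reads of structural RNAs, and defined loci with ShortStack above a minimum abundance. Whether identical molecules were collapsed and the genome build are not given in the sources used here. What was deposited is raw read counts at each locus, all read lengths together, with totals between 1950081 and 4920576 per library.

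edgeR 4.0.16 in R 4.3.3 tested the counts (filterByExpr at a count of 10 and a total of 15, TMM factors, quasi-likelihood test) in a single fit of the 6 libraries, with Benjamini-Hochberg adjustment over the 22558 loci tested. Window sums were tested likewise. The common dispersion gave a biological coefficient of variation of 82.7%. Shares of reads were compared with exact two-sided permutation tests. Named loci were, in each direction, the 8 most abundant calls without overlap, the 3 longest, the 3 shortest and the 3 most abundant without a read in the lower allele, the most abundant member of each length class, and the locus with the largest part of the difference in called windows, of which only those of the windows with the lowest p are described. Of loci within 10 kb in a list the more abundant was kept. Others are said to be chosen after their values were seen. The members and lists were chosen with earlier results of these data known. DESeq2 1.42.0, other scalings, filters and subsets of libraries were tried as alternatives. The scripts were tested on simulated data.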

Additional observations from a re-analysis of the deposited data

How the results depend on the processing

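Against 45 lower and 37 higher loci, scaling by library size alone gave 52 and 62, DESeq2 204 and 174, a fit of only the 4 libraries of both alleles 12 and 12, no filter on low counts 233 and 122, testing all loci with 15 reads 106 and 75, a filter of 5 CPM in 2 libraries 26 and 29, and limits of 0.05 for the adjusted p and 1 for the log2 fold change 101 and 91. All 45 and 37 were among the calls of DESeq2. RLE factors (46 and 37) and upper-quartile factors (47 and 39) changed the counts little and kept all 45 and 37. Thinned counts gave 51 and 40, but only 43 of the 45 lower and 30 of the 37 higher loci were among them. With a library left out, lower calls numbered 7 to 54 and higher calls 7 to 18. The replicate numbers did not pair the samples, since deviations of same-numbered libraries correlated at -0.012 to 0.0044, and the fit with a replicate block gave 76 lower and 69 higher loci and 26 lower and 28 higher windows.

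Of 10 Mb windows, 32 were lower and 34 higher. Upper-quartile factors gave 17 lower windows, and windows of 5 Mb gave 54 lower and 55 higher. With a library left out, 13 to 31 windows were lower and 14 to 35 higher.

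The difference in the share of loci under 500 bp (-0.23 points) reversed with a limit of 200 bp (0.22) and without the 10 most abundant loci (0.092), and with a library left out it ran from -0.63 to 0.17. The difference in the share within 10% of a chromosome end (-0.10 points) reversed without the 10 most abundant loci (1.02) and ran from -0.39 to 0.18 with a library left out. Cluster_25109 ran from -0.048 without *dcl2-mu1* replicate 2 to 0.37 without replicate 1 of that genotype. Of 576 values of 36 named loci over the alternatives, 464 kept direction and status, called or not, and 111 lost the call. Values of named loci that were called in no fit, such as Cluster_57375, are among the 464. The causes were not tested.

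With 2 libraries per allele, 1 of them sparse, changes at loci of few reads were not detectable, and a count of 0 limits a level only to the floor given.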
